A study of Mus musculus with 9 samples.

Results

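Chromatin accessibility was examined at 3 forkhead genes, Foxp1, Foxo1 and Foxo3, in naive CD4+ T cells of C57BL/6 mice. Their peaks were all peaks that the deposited table assigned to 1 of the 3 gene symbols, together with intergenic peaks within 50 kb of the transcript span. This gave 278 of the 115727 peaks in the table, of which 194 belonged to Foxp1, 58 to Foxo1 and 26 to Foxo3. ATAC-seq, which tags open DNA with adapters carried by a transposase, was run on 3 libraries from each of 3 genotypes: WT, Stat6_KO (Stat6 knockout) and Il21e_KO. All cells were untreated and were enriched with a negative-selection kit. In the labels the Il21e_KO allele is also called IL21KO, and the DNA it lacks is not stated. Whether the 3 libraries of a genotype came from separate mice is not stated either, so each p-value rests on the spread between libraries, which may be technical. Values are CPM, the reads in a peak per 1000000 reads in all listed peaks of that library.

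Forkhead factors bind DNA through a winged-helix domain that recognizes variants of the sequence TAAACA. FOXO1 and FOXO3 act in the nucleus of resting cells, and phosphorylation by AKT downstream of PI3K moves them to the cytoplasm bound to 14-3-3 proteins. In naive T cells FOXO1 maintains genes of homing and survival such as Ccr7, Klf2 and Il7r. FOXP1 lacks this AKT switch, acts mainly as a repressor, and is required for naive T cells to stay quiescent. FOXO3 shares targets with FOXO1, among them genes of cell death and arrest such as Bcl2l11 and Cdkn1b. STAT6 is the transcription factor activated by interleukin-4, and interleukin-21 is a cytokine made mainly by activated CD4+ T cells.

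The promoters are shown because the start-site peaks of these genes are described by genotype below. Each is the RefSeq sequence from 250 bases before to 50 bases after an annotated start on GRCm38.p6, written 5′ to 3′ on the gene's strand, and the capitals mark TAAACA or its reverse complement TGTTTA. RefSeq listed 3 Foxp1 starts, of which the inner ones lie 254478 and 492695 bases from the outermost one. These distances equal those between the outermost start and the third and the fourth starts of the deposited table, which is on mm9, and no coordinates were converted.
Foxp1 start 1, chr6:99520944-99521243, minus strand: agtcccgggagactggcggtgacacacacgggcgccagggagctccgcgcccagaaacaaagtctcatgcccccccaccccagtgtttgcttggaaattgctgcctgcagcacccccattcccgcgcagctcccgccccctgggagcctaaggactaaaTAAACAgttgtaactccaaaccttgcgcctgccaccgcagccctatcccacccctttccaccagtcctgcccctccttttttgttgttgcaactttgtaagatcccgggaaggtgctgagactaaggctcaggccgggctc
Foxp1 start 3, chr6:99266466-99266765, minus strand: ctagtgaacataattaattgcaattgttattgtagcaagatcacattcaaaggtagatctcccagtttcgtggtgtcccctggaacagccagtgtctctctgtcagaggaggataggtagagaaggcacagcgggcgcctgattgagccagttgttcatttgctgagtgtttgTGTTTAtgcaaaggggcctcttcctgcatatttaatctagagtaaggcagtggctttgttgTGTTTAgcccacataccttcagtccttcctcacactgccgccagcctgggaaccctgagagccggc
Foxp1 start 4, chr6:99028249-99028548, minus strand: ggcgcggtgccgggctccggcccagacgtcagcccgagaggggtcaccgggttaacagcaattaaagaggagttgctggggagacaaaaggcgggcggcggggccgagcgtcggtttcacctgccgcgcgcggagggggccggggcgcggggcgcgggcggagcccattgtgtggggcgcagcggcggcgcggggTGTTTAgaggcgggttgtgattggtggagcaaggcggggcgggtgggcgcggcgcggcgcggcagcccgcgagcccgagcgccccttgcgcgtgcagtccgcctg
Foxo1, chr3:52268087-52268386, plus strand: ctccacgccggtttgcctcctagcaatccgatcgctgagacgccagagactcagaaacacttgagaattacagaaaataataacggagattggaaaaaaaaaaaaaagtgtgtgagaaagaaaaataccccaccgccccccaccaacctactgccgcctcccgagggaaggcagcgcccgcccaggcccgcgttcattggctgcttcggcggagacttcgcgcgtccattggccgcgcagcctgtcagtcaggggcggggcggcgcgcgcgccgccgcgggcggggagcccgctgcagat
Foxo3, chr10:42276646-42276945, minus strand: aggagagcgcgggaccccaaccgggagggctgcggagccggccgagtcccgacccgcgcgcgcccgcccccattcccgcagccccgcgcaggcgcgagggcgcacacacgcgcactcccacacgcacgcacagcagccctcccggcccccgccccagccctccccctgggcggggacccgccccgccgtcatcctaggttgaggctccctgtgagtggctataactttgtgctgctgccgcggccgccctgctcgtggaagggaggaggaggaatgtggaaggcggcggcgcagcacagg

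The Foxp1 promoters held 1, 2 and 1 TAAACA matches on either strand, and those of Foxo1 and Foxo3 held 0. Across 32851 RefSeq promoters of this length, 13.4% held at least 1 match. The longer form GTAAACA was in 3.65% of all promoters and in none of these 5. Palindromes bound by STAT factors, searched on both strands as TTC and GAA separated by 4 bases (the spacing STAT6 prefers) or by 3 bases, were in 6.95% and 8.30% of all promoters and in none of these 5. A match describes letters in the window and not a bound site. The promoters differed in base composition: Foxp1 start 4 and Foxo3 were 75.3% and 75.0% G and C, Foxo1 61.3%, Foxp1 start 1 60.3% and Foxp1 start 3 48.7%, where the median of all promoters was 52.7%. The ratio of observed to expected CpG was 1.11 at Foxp1 start 4, 1.101 at Foxo1 and 0.834 at Foxo3, but 0.499 at Foxp1 start 1 and 0.282 at Foxp1 start 3, against a median of 0.384. Of the 3 Foxp1 promoters, the third start was below both medians, and the first and the fourth were above them.

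The libraries held 1049460 to 1802405 reads in peaks, so 3 reads, the limit a count of 0 allows, came to 1.66 to 2.86 CPM. Library Il21e_KO 1 was the shallowest, had 27200 peaks without a read against 3898 to 12916 in the others, and placed 42.7% of its reads in start-site peaks against 31.6% to 36.4%. WT 1 and WT 2 were next, with 36.4% and 35.6%. Where leaving out Il21e_KO 1 moved a named difference by more than 1.5 times, both values are given. At the Stat6 gene, the peak over exon 16 held 25 to 41 reads in the Stat6_KO libraries and 2 to 17 in the other 6, and the peak over exon 12 held 3 to 5 against 5 to 19. The 6 peaks assigned to Il21 held at most 5 reads in any library and give no check of the Il21e_KO label. All 8 naive CD4+ T cell marker genes had start-site peaks, with a summed 199 to 262 CPM. Markers of other lineages were present at summed levels that overlapped between the genotypes. These were 30.0 to 40.5 CPM at Cd8b1, 1 of 2 CD8 T cell genes, 4.90 to 20.6 at 3 of 3 B cell genes and 40.4 to 56.7 at 2 of 4 myeloid genes. The sums cover unequal numbers of genes and cannot rank the lineages. Taken singly, Cd8b1 was above Cd4, at 5.89 to 12.3 CPM, and below Tcf7, at 58.3 to 87.2. NK cell and erythroid genes held 0.612 to 3.88 CPM at 1 of 2 genes and 14.2 to 23.9 CPM at 1 of 3 genes. Their part in the results was not tested.

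Foxp1 was spread over the largest number of peaks of any gene in the table. On mm9 it lies at chr6:98875336-99470988 on the minus strand, a span of 595.7 kb, and 181 peaks were assigned to it, the highest of 16126 genes, whose median was 2. Only 13 further intergenic peaks fell within 50 kb. Foxo1, at chr3:52072259-52154032 on the plus strand, had 38 assigned peaks in 81.8 kb and 20 intergenic ones. Foxo3, at chr10:41905592-41996549 on the minus strand, had 16 assigned peaks in 91.0 kb and 10 intergenic ones. Peak density therefore ordered the genes differently from peak number, with 46.5 peaks per 100 kb in Foxo1, 30.4 in Foxp1 and 17.6 in Foxo3. The length of the assigned peaks came to 21.9%, 15.3% and 10.7% of the spans of Foxo1, Foxp1 and Foxo3. The peaks at the outermost starts lie partly or wholly beyond the spans and were counted whole, so the covered shares are smaller.

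Levels between genes were compared per length. Per kb of transcript span, Foxo1 had 3.86 to 4.25 CPM over the 9 libraries with a median of 4.12. Foxp1 had 2.52 to 2.69 with a median of 2.602, and Foxo3 1.61 to 1.95 with a median of 1.74. No 2 of these ranges overlapped. Per kb of peak the genes were close, with 17.6 to 19.4 CPM in Foxo1, 16.4 to 17.5 in Foxp1 and 15.04 to 18.2 in Foxo3. On that scale Foxo1 lay above Foxp1 in every library, and Foxo3 overlapped both. The mean over all peaks of the table was 15.6 CPM per kb of peak. The 3 genes thus differed in the length of their peaks relative to the span, and little in how accessible the open stretches were.

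**Figure D1:**
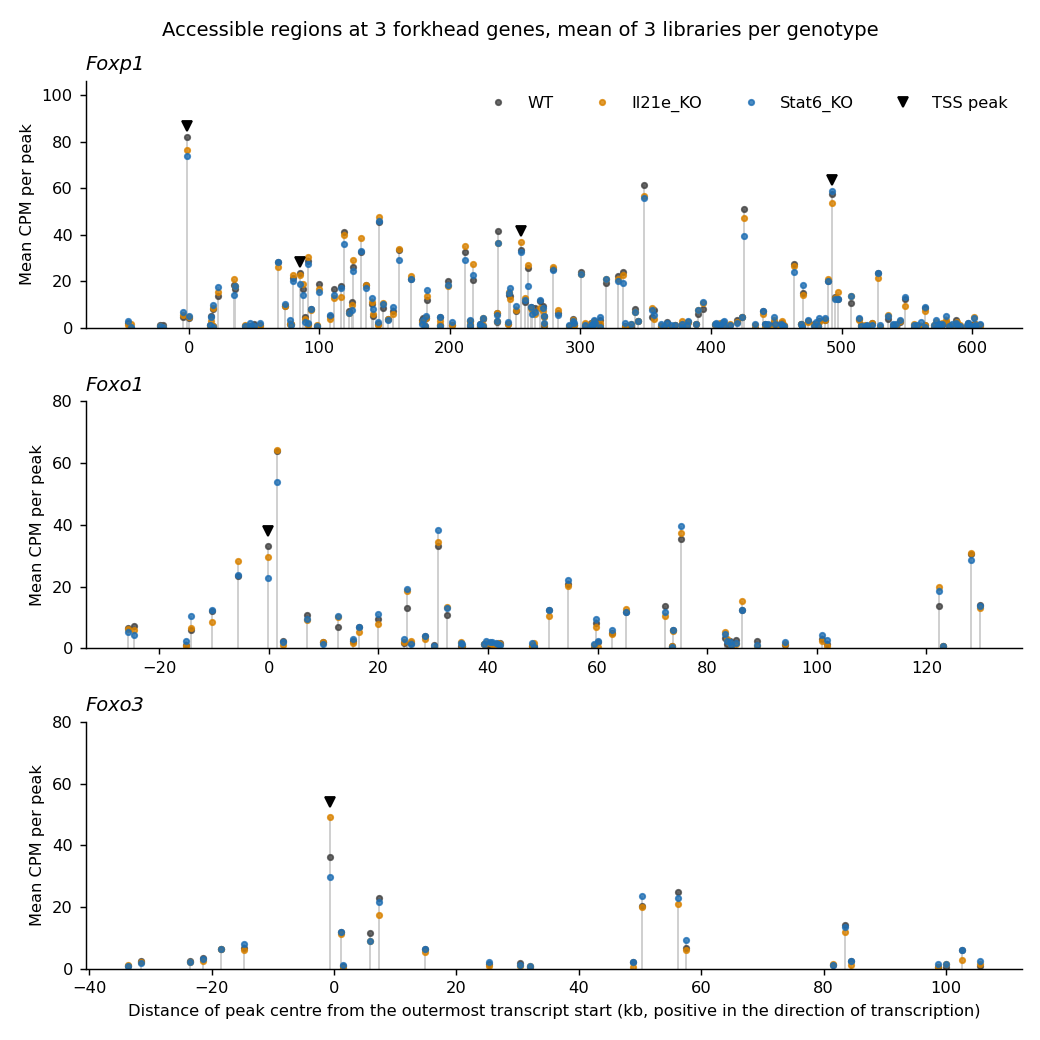
Mean CPM of each peak over the 3 libraries of each genotype (vertical axis, coloured by genotype). The horizontal axis is the distance in kb from the outermost start of Foxp1, Foxo1 or Foxo3, in the direction of transcription. Foxp1 has accessible peaks over its whole 595.7 kb, with 4 start-site peaks, while Foxo1 and Foxo3 have 1 start-site peak each.

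Outside the start sites, accessibility of Foxp1 lay mostly upstream of its innermost start. The table lists 4 Foxp1 starts, separated by 85.6, 168.8 and 238.2 kb, and labels 103 of the 181 peaks as 5′ UTR exon. Those 103 peaks total 56.3 kb, so the label must also cover introns between untranslated exons. Between the first and the second starts 18 peaks held 138.2 CPM, or 1.61 CPM per kb. The 168.8 kb between the second and the third starts were densest in signal, with 49 peaks, 592.9 CPM and 3.51 CPM per kb. The next 238.2 kb held 77 peaks and 2.11 CPM per kb. From the fourth start to the gene's end 33 peaks held 1.21 CPM per kb.

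The 194 peaks had mean values of 0.653 to 77.3 CPM with a median of 2.77, against 3.34 for all peaks in the table. Of these, 47 exceeded 10 CPM and 86 were below 2 CPM, and the 48 highest, 25% of the peaks, held 74.96% of the summed CPM. The most accessible peak was the outermost start site, and the next was at chr6:99121347-99123165, 349 kb into the gene and between the third and the fourth starts. This internal peak held 66.1, 58.4 and 59.3 CPM in WT, 61.0, 54.8 and 54.4 in Il21e_KO, and 56.3, 56.5 and 55.05 in Stat6_KO. All 3 Stat6_KO values were below the lowest WT value, by an amount within the error of the fit (log2 fold change -0.13 ± 0.13 SE).

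In Foxo1 the highest 25% of the peaks, 14 of 58, held 69.1% of the summed CPM, and in Foxo3 6 of 26 held 66.9%. Intron 1 of Foxo1 carried 36 of its 38 assigned peaks and 246.0 CPM, and the highest peak, chr3:52072869-52074684, covered coding exon 1 with a mean of 60.7 CPM. That peak begins 133 bases after the start-site peak ends. A pair of intronic peaks followed, at chr3:52146945-52148123, 75.3 kb from the start, with 30.4 to 42.2 CPM over the 9 libraries, and at chr3:52102451-52103723 with 31.0 to 44.7 CPM. In Foxo3 the start-site peak was the highest, and intron 2 held 10 peaks with 93.4 CPM. Its highest internal peaks were neighbours there, chr10:41939687-41940835 with 14.3 to 28.4 CPM and chr10:41945803-41946663 with 16.2 to 26.5 CPM.

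The flanks differed as well. The intergenic peaks within 50 kb of Foxo1 held 57.2 CPM upstream of the start and 94.2 CPM beyond the gene's end. The highest of them were chr3:52199922-52200842, 128 kb from the start, with 30.1 CPM, and chr3:52066284-52067040, 5.60 kb before the start, with 25.3 CPM. No other gene of the table lay nearer than 137.4 kb to these Foxo1 peaks. The flanks of Foxo3 held 22.0 CPM upstream and 8.71 CPM beyond the end, and 5 of their 10 peaks lay nearer to Lace1. The flanks of Foxp1 held 10.2 and 11.97 CPM.

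A smaller share of each gene's signal lay at start sites than of the signal pooled over all genes, whose median was 2 peaks per gene. Genes of like peak number were not compared. Start-site peaks held 12.3% of the in-gene CPM of Foxp1, 8.50% of Foxo1 and 23.8% of Foxo3, where over all genes they held 48.4%. Per kb of peak the third Foxp1 start was the most accessible, at 38.0 CPM, followed by the fourth at 31.7, the first at 30.2 and the second at 26.0. The Foxo1 and Foxo3 start-site peaks had 21.4 and 17.1 CPM per kb.

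Of the 4 Foxp1 starts, the fourth, CpG-rich one held 55.7, 54.5 and 62.6 CPM in WT, 40.02, 59.2 and 61.0 in Il21e_KO and 55.7, 57.7 and 62.4 in Stat6_KO. The third held 34.3, 33.5 and 32.9 CPM in WT, 52.4, 32.8 and 24.97 in Il21e_KO and 27.8, 35.3 and 34.3 in Stat6_KO. Library Il21e_KO 1 was thus the lowest of 9 at the fourth start and the highest at the third. The outermost start held 97.9, 71.6 and 76.1 CPM in WT, 62.9, 78.8 and 87.7 in Il21e_KO, and 71.0, 78.3 and 71.6 in Stat6_KO, with Il21e_KO 1 again the lowest. The second held 16.5 to 28.1 CPM over the 9 libraries. The genotypes overlapped at every Foxp1 start in all 3 comparisons.

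The Foxo1 start-site peak, chr3:52071407-52072736, held 37.9, 36.6 and 24.5 CPM in WT, 40.02, 23.9 and 24.97 in Il21e_KO and 20.5, 24.1 and 23.9 in Stat6_KO. These values rest on 36 to 62 reads per library. Every Stat6_KO value was below every WT value, while Il21e_KO overlapped both. The separation was less than 1 read at its closest, 24.1 CPM in Stat6_KO 2 against 24.5 in WT 3. There 1 read is 0.589 and 0.645 CPM. Of all tested peaks, 6.89% separated in this direction. The log2 fold change of Stat6_KO against WT was -0.49 ± 0.22 SE (adjusted p = 1 over all peaks tested, limma). Without Il21e_KO 1, whose spread enters the shared error, the standard error was 0.16 and the adjusted p was 0.27. The 3 highest values at this peak were those of the 3 libraries with the highest share of reads in start-site peaks, Il21e_KO 1, WT 1 and WT 2, and the part of that share in the difference was not tested. The neighbouring exon 1 peak held 66.1, 68.5 and 57.4 CPM in WT, 73.4, 66.2 and 53.3 in Il21e_KO, and 52.8, 55.3 and 53.2 in Stat6_KO. Stat6_KO was again below every WT library there, with a log2 fold change of -0.24 ± 0.14 SE (adjusted p = 1, limma).

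At the Foxo3 start-site peak, chr10:41996094-41998343, 1 library stood apart. It held 40.4, 40.5 and 27.7 CPM in WT, 89.6, 27.1 and 30.5 in Il21e_KO and 29.5, 28.3 and 31.8 in Stat6_KO. The 89.6 CPM of Il21e_KO 1 came from 94 reads, and no other library exceeded 66. This peak took 50.5% of the in-gene Foxo3 CPM in Il21e_KO 1 and 16.6% to 25.6% in the other 8 libraries. Il21e_KO against WT gave a log2 fold change of 0.23 ± 0.31 SE with that library and -0.30 without it. Stat6_KO against Il21e_KO gave -0.48 ± 0.31 SE with it and 0.05 without it.

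**Figure D2:**
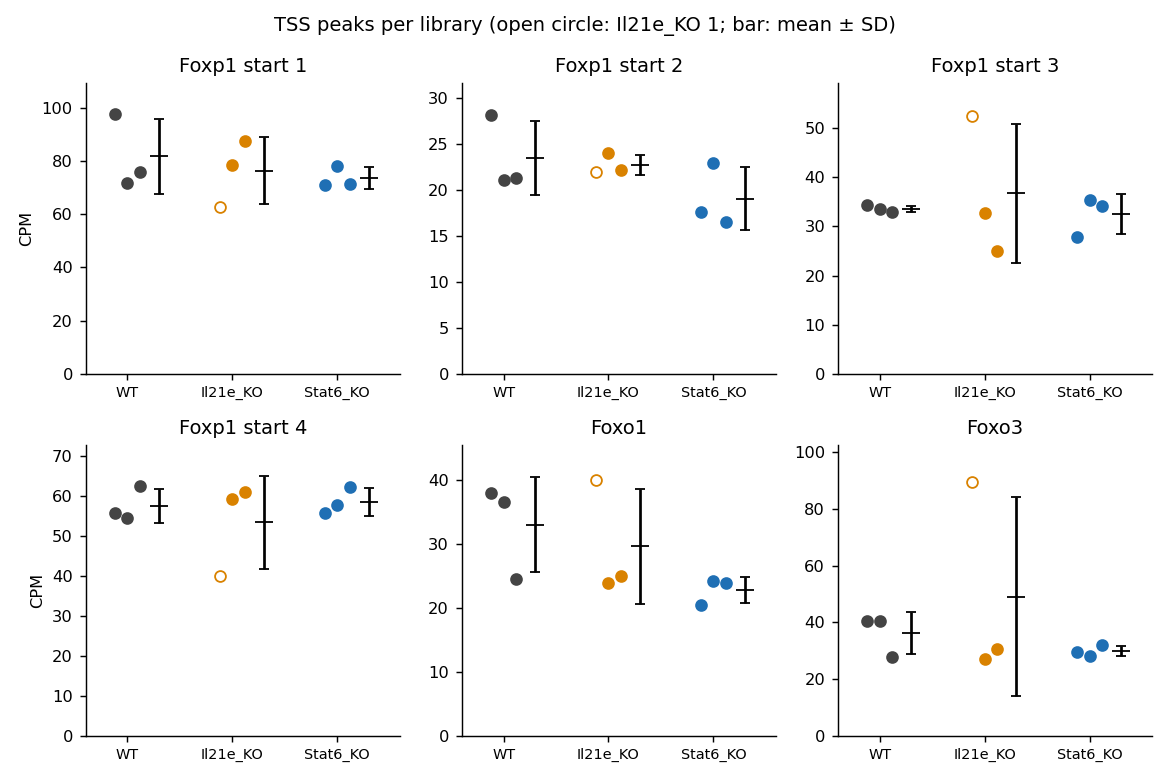
CPM of the 4 Foxp1 start-site peaks and the Foxo1 and Foxo3 start-site peaks (vertical axes) in each library by genotype (horizontal axis), with mean ± SD (n = 3) and Il21e_KO 1 as an open circle. At Foxo3 the open circle stands at 89.6 CPM, and at Foxo1 the 3 Stat6_KO libraries lie at 20.5 to 24.1 CPM.

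**Figure D3:**
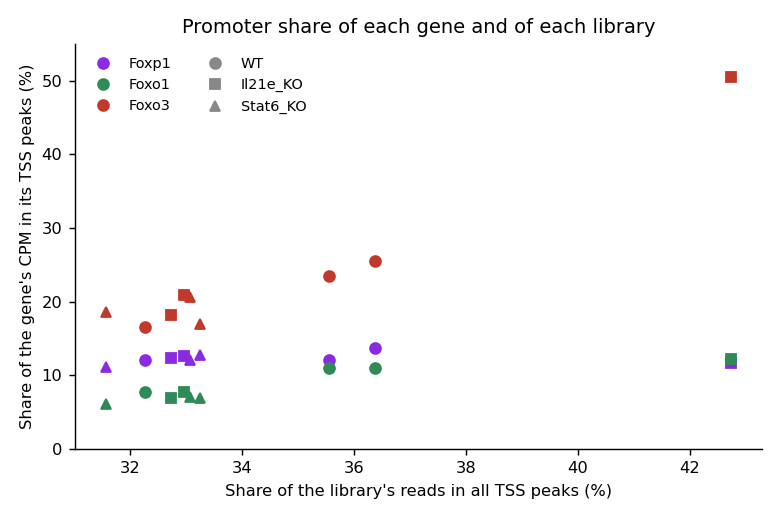
Share of each gene's in-gene CPM that lay in its start-site peaks (vertical axis, percent) in each library. The horizontal axis is the share of the library's reads in all start-site peaks (percent), and the marker shape gives the genotype. Il21e_KO 1, the squares furthest right at 42.7%, reaches 50.5% at Foxo3, and Foxp1 stays between 11.1% and 13.7% in all 9 libraries.

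Summed over all peaks of a gene, the 3 genotypes overlapped at each gene in all 3 comparisons, where over all genes 14.9% in Stat6_KO against WT, 6.78% in Il21e_KO against WT and 11% in Stat6_KO against Il21e_KO did not overlap. Foxp1 held 1586, 1521 and 1623 CPM in WT, 1530, 1607 and 1577 in Il21e_KO, and 1574, 1556 and 1564 in Stat6_KO. The means ± SD (n = 3) were 1577 ± 51.3, 1572 ± 38.9 and 1565 ± 8.67. Foxo1 held 498.7, 477.3 and 456.6 CPM in WT, 482.2, 501.6 and 474.4 in Il21e_KO, and 486.4, 502.8 and 499.7 in Stat6_KO. Foxo3 held 185.4, 199.3 and 205.1 CPM in WT, 189.6, 179.0 and 184.8 in Il21e_KO, and 196.6, 201.4 and 184.1 in Stat6_KO. The lowest Foxo3 value and the lowest mean, 184 ± 5.34 CPM against 197 ± 10.1 in WT, were in Il21e_KO. In bulk libraries, fewer cells of a type with an open site and less access per cell cannot be told apart.

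**Figure D4:**
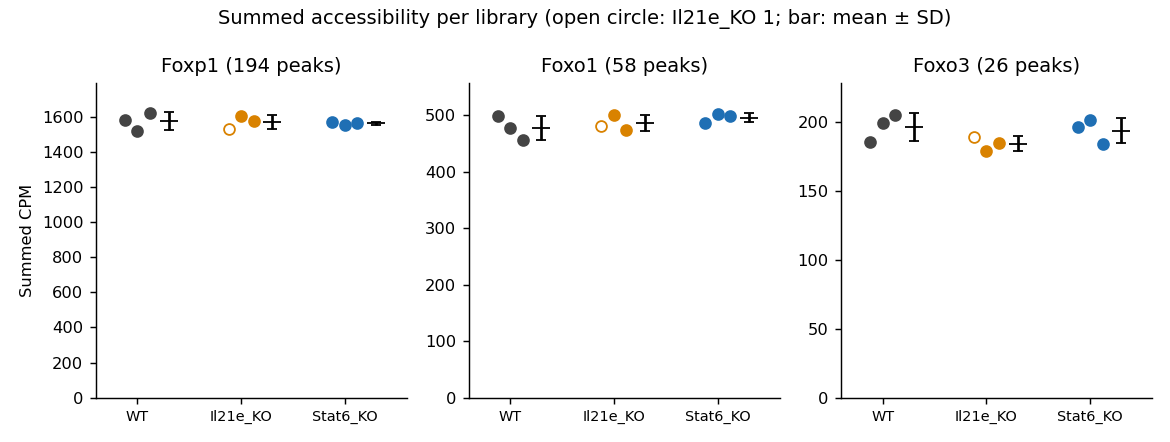
Summed CPM over all peaks of each gene (vertical axes, from 0) in each library by genotype, with mean ± SD (n = 3). The groups overlap at each gene, between 1521 and 1623 CPM at Foxp1, 456.6 and 502.8 at Foxo1, and 179.0 and 205.1 at Foxo3.

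These sums were tested in a limma fit over 15394 genes built by the same rule. The fit called 2 genes (0.013%) between Stat6_KO and WT, 0 (0%) between Il21e_KO and WT, and 3 (0.0195%) between Stat6_KO and Il21e_KO at an adjusted p of 0.05, and none of the 3 forkhead genes. At an unadjusted p of 0.05 the shares were 3.37%, 2.88% and 5.4% of genes, again without the forkhead genes. For Foxp1, the 95% intervals of the fold were 0.943 to 1.045 in Stat6_KO against WT and 0.947 to 1.05 in Il21e_KO against WT. For Foxo1 they were 0.968 to 1.118 and 0.947 to 1.094. For Foxo3 they were 0.893 to 1.091 and 0.850 to 1.038, where the Il21e_KO difference was -0.09 ± 0.07 SE on the log2 scale (adjusted p = 0.999). Between Stat6_KO and Il21e_KO the intervals were 0.946 to 1.048 for Foxp1, 0.950 to 1.098 for Foxo1 and 0.951 to 1.162 for Foxo3. All of these intervals include no difference, were not adjusted for the number of genes and are not limits of detection. Differences within them were not resolved with 3 libraries per genotype. The comparisons with WT share the 3 WT libraries.

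Outside the start site, the in-gene Foxo3 peaks held 117, 132 and 139 CPM in WT, 87.7, 122 and 116 in Il21e_KO, and 129, 138 and 122 in Stat6_KO. Il21e_KO 1, which was highest at the start site, was lowest here. Those of Foxo1 held 309, 297 and 291 CPM in WT, 287, 321 and 298 in Il21e_KO, and 317, 323 and 318 in Stat6_KO. All 3 Stat6_KO values exceeded the WT ones here, opposite to the start-site peak of the same gene. Neither of these partial sums was tested. Start-site peaks took 36.4%, 35.6% and 32.3% of the reads in WT and 31.6%, 33.3% and 33.1% in Stat6_KO. The part of that share in the sums was not tested. Within Foxp1, the stretch from the fourth start to the gene's end held 116 ± 9.64 CPM in WT, 124 ± 10.3 in Il21e_KO and 134 ± 5.67 in Stat6_KO (SD, n = 3). The stretch between the second and the third starts held 595 ± 11.4, 600 ± 13.6 and 584 ± 7.81 CPM.

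Single peaks were tested where enough reads allowed it. Of the 278 peaks, 108 passed the filter on low reads: 70 of Foxp1, 26 of Foxo1 and 12 of Foxo3. They held 86.5% of the summed CPM of the 3 genes, and the 170 untested peaks had at most 15 reads in any library. In Stat6_KO against WT, limma called 5 of 48287 peaks (0.0104%) and 0 of the 108. At an unadjusted p of 0.05, 1 of the 108 was higher and 1 lower, where 1.68% and 1.62% of all peaks were. In 8 of the 108 every Stat6_KO library exceeded every WT library and in 9 the reverse held, where the shares over all peaks were 6.31% and 6.89%. Of the 108, 54 had a positive difference, and the median log2 fold change was -0.00, as over all peaks.

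In Il21e_KO against WT, limma called 0 of 48287 peaks (0%). At an unadjusted p of 0.05, 4 of the 108 peaks were higher and 0 lower, where 1.1% and 2.41% of all peaks were. Groups did not overlap in 3 higher and 4 lower peaks, with 2.84% and 4.44% over all peaks. The median was -0.06, against -0.03 over all peaks. At Foxo3, 11 of its 12 tested peaks had a negative difference, with a median of -0.24, and the exception was the start-site peak. Without Il21e_KO 1, 7 of these 12 differences were negative and their median was -0.02.

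In Stat6_KO against Il21e_KO, limma called 5 of 48287 peaks (0.0104%) and 0 of the 108. At an unadjusted p of 0.05, 3 were higher and 0 lower, with 3.31% and 2.38% over all peaks, and 8 higher and 3 lower peaks had groups without overlap, with 6.45% and 4.59% over all peaks. At Foxo3, 11 of the 12 differences were positive here, with a median of 0.22, and 6 were positive without Il21e_KO 1, with a median of 0.02. That comparison shares the Il21e_KO libraries with the preceding one, and these 12 peaks come from the same gene and libraries. edgeR and DESeq2, on the read counts recovered from the CPM values, also called 0 of the 108 in each comparison. Over all peaks they called 6 and 6 in Stat6_KO against WT, 0 and 0 in Il21e_KO against WT, and 12 and 7 in Stat6_KO against Il21e_KO.

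In both comparisons with WT, leaving out Il21e_KO 1 changed the unadjusted counts among the peaks of the 3 genes more than leaving out any other library. Without it, 111 of the 278 peaks were tested, and the numbers at an unadjusted p of 0.05 were 10 in Stat6_KO against WT, 11 in Il21e_KO against WT and 4 in Stat6_KO against Il21e_KO, where 9.28%, 6.91% and 3.89% of all peaks passed. limma then called 63, 4 and 18 peaks of 51056 in the 3 comparisons, and 0 of the 111. Without Il21e_KO 3, 10 of 110 peaks passed the unadjusted p in Stat6_KO against Il21e_KO, where 12.4% of all peaks did, and 0 were called. Over all peaks, leaving out any Il21e_KO library raised the share in Il21e_KO against WT from 3.52%. It was 7.05% without Il21e_KO 2 and 7.41% without Il21e_KO 3.

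**Figure D5:**
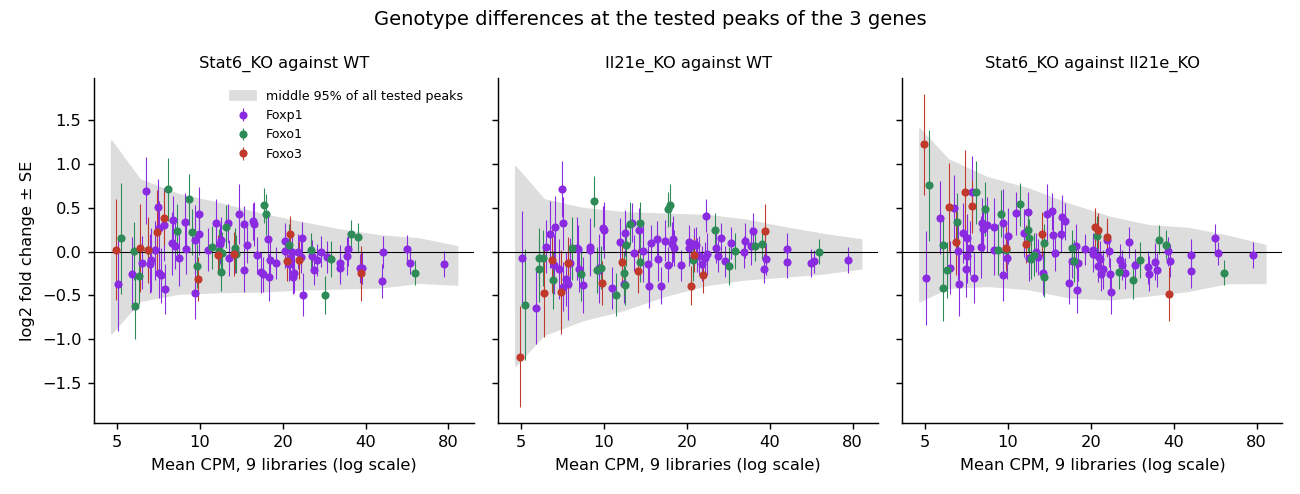
Log2 fold change ± SE (vertical axis) of the 108 tested peaks against their mean CPM over 9 libraries (horizontal axis, log scale) in the 3 comparisons. The grey band holds the middle 95% of all 48287 tested peaks, and the differences of the 108 range from -0.62 to 0.71 in Stat6_KO against WT and from -1.20 to 0.71 in Il21e_KO against WT.

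The Foxo1 peak with the smallest p in both comparisons with WT lay in intron 1 at chr3:52097036-52097803, 25.2 kb from the start. It held 14.7, 10.1 and 14.8 CPM in WT, 18.1, 19.5 and 18.3 in Il21e_KO, and 18.2, 20.02 and 19.6 in Stat6_KO. All 6 knockout libraries exceeded all 3 WT libraries, which both comparisons share. The log2 fold change was 0.53 ± 0.20 SE in Stat6_KO (adjusted p = 1) and 0.49 ± 0.20 SE in Il21e_KO (adjusted p = 1.00, limma). Without Il21e_KO 1, the adjusted p in Stat6_KO was 0.316. The Il21e_KO difference was 0.32 without WT 2, the lowest library. Upstream of Foxo1, the intergenic peak chr3:52061565-52062140 held 12.9, 13.2 and 10.3 CPM in WT, 5.72, 8.82 and 11.1 in Il21e_KO, and 13.6, 12.4 and 11.6 in Stat6_KO. The Stat6_KO values exceeded all Il21e_KO values there (log2 fold change 0.54 ± 0.25 SE, adjusted p = 0.78, limma), and the difference was 0.31 without Il21e_KO 1.

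In Foxp1, the peak chr6:99252462-99253463 held 21.4, 17.1 and 22.6 CPM in WT and 27.6, 26.5 and 27.7 in Il21e_KO, with 24.4, 19.4 and 24.5 in Stat6_KO. Every Il21e_KO library exceeded every WT library (log2 fold change 0.41 ± 0.18 SE, adjusted p = 1.00, limma). The peak chr6:99210898-99211868, just past the third start, held 28.8, 25.7 and 23.2 CPM in WT, 41.0, 22.1 and 17.8 in Il21e_KO, and 18.2, 16.5 and 19.6 in Stat6_KO. Stat6_KO lay below WT without overlap (-0.49 ± 0.24 SE), and Il21e_KO 1 was the highest of 9, as at the third start itself. Peak chr6:99329288-99329639 was higher in Stat6_KO, with 8.52, 7.07 and 9.17 CPM against 6.12, 6.23 and 2.58 in WT, a difference of 0.70 ± 0.38 SE that was 0.36 without WT 3. Peak chr6:99353669-99354378 held 14.7, 16.3 and 22.6 CPM in WT and 11.4, 14.5 and 13.9 in Il21e_KO, without overlap (-0.39 ± 0.21 SE, and -0.22 without WT 3). Peak chr6:99224320-99224955 held 10.5, 11.3 and 15.5 CPM in Il21e_KO and 17.0, 17.7 and 17.1 in Stat6_KO (0.46 ± 0.21 SE, adjusted p = 0.78, limma). These peaks were named for the smallest p in a direction among the 70 tested Foxp1 peaks, and none was called. Over all tested peaks, groups did not overlap in 13.2% in Stat6_KO against WT and 7.28% in Il21e_KO against WT. The share was 11% in Stat6_KO against Il21e_KO.

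In Foxo3, the peaks with the smallest p were weak. The intergenic peak chr10:41893639-41894183 beyond the gene's end held 6, 8 and 13 reads in WT, 0, 6 and 8 in Il21e_KO, and 14, 9 and 8 in Stat6_KO. Its difference of -1.20 ± 0.58 SE in Il21e_KO against WT includes 1 library without a read, Il21e_KO 1, and was -0.42 when that library was left out. Inside the gene, chr10:41990475-41990947 held 11.01, 13.2 and 10.3 CPM in WT and 7.96, 9.42 and 9.79 in Stat6_KO, without overlap and with a difference of -0.31 ± 0.25 SE.

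Genes of the same pathway were described from 3 lists. Targets of FOXO factors in T cells had a peak at 18 of 19 genes, with 69 tested peaks, and enzymes and partners that act on FOXO proteins had tested peaks at 25 of 27 genes, with 105 tested peaks. Other forkhead genes had tested peaks at 24 of 34 genes, with 56 tested peaks. limma called 0 peaks of any list in either direction in the 3 comparisons. At an unadjusted p of 0.05, in Stat6_KO against WT, FOXO targets had 0 higher and 3 lower peaks, the genes acting on FOXO 4 higher and 1 lower, and the other forkhead genes 2 higher and 1 lower, where 1.68% of all peaks were higher and 1.62% lower. In Il21e_KO against WT these counts were 0 and 1, 0 and 2, and 1 and 1, with 1.1% and 2.41% over all peaks. In Stat6_KO against Il21e_KO they were 2 and 4, 2 and 5, and 1 and 1, with 3.31% and 2.38%. Their median log2 fold changes in Stat6_KO against WT were -0.08, -0.01 and 0.03, against -0.00 over all peaks.

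Among the targets, the start-site peak of Ccr7, the receptor that guides naive T cells into lymph nodes, held 13.2 ± 1.68 CPM in Stat6_KO and 20.4 ± 0.911 in WT (SD, n = 3), without overlap and with a log2 fold change of -0.60 ± 0.26 SE (adjusted p = 1, limma). Tcf7, which encodes the naive T cell factor TCF1, held 62.0 ± 3.38 CPM in Il21e_KO and 76.9 ± 11.5 in WT, and the groups overlapped. In the other direction, Klf2, a factor of naive T cell homing, held 33.8 ± 19.7 CPM in Il21e_KO and 24.0 ± 8.60 in WT. This difference of 0.38 ± 0.30 SE on the log2 scale was -0.05 without Il21e_KO 1. Ctla4, an inhibitory receptor, held 15.7 ± 1.70 CPM in Stat6_KO and 14.5 ± 0.696 in WT, with overlap. Among the genes acting on FOXO, Pik3cd, the catalytic PI3K subunit of lymphocytes, held 8.87 ± 2.87 CPM in Stat6_KO and 13.2 ± 0.605 in WT (-0.56 ± 0.25 SE, and -0.33 without Stat6_KO 2). Sgk1, a kinase that phosphorylates FOXO proteins, held 28.1 ± 1.53 CPM against 21.7 ± 3.45 (0.37 ± 0.19 SE, and 0.23 without WT 1). Mapkap1, a subunit of mTORC2, held 15.2 ± 1.71 CPM in Stat6_KO and 24.8 ± 7.44 in Il21e_KO (-0.65 ± 0.22 SE, adjusted p = 0.78, limma), a difference of -0.42 without Il21e_KO 1. Among the other forkhead genes, Foxk1 held 21.3 ± 4.24 CPM in Stat6_KO and 29.8 ± 4.63 in WT at its start site (-0.48 ± 0.19 SE, adjusted p = 1, limma), a difference of -0.31 without Stat6_KO 1.

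Per kb of peak, the in-gene accessibility of other forkhead genes spanned that of the 3 genes. Foxj2 held 24.3 CPM per kb over 5 peaks, Foxo4, another FOXO gene, 22.6 over 3 peaks, Foxp4 18.4, Foxk1 18.0 and Foxn3 10.9 over 68 peaks. These compare with 18.7 for Foxo1, 17.0 for Foxp1 and 16.5 for Foxo3.

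The genes whose summed accessibility followed each forkhead gene most closely over the 9 libraries were found among about 8014 genes with at least 50 CPM. They were Scg5, Msgn1 and Ugcg for Foxp1, with Pearson correlations of 0.943, 0.934 and 0.933. For Foxo1 they included Aars and Tnfrsf1b, at 0.921 and 0.892, and for Foxo3 they were Supt16, Rab37 and Kansl1, at 0.917, 0.913 and 0.897. The 9 points share depth and start-site share, and the values of the 3 genes varied little between libraries. Without Il21e_KO 1, the names were Medag, Slc36a1 and Msgn1 for Foxp1, Aars, Tnfrsf1b and Fam234a for Foxo1, and Sgk1, Samsn1 and Arrb2 for Foxo3. Only Msgn1, Aars and Tnfrsf1b were among the first 3 both times. The 8 libraries are part of the 9, so the second search is no independent repeat. Each name is among the highest of about 8014 correlations over few points, and how high such maxima reach by chance was not tested.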

How the data were processed

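ATAC-seq of untreated naive CD4+ T cells was analysed in 9 libraries, 3 per genotype, grouped by their titles. Per the labels' protocols, cells were tagmented with the Nextera enzyme and sequenced as paired-end reads. Bowtie 1.3.0, MACS2 2.0 and HOMER are listed in the submitters' processing notes with no role for any of them, and how peaks were merged is not given in the sources used here. The authors deposited CPM per peak for 115727 mm9 peaks, scaled to each library's reads in those peaks. The headers of the gene columns are shifted, so columns were read by content. Every value (100%) was within 0.01 read of a whole multiple of a library's step, taken as 1 read, which gave 1049460 to 1802405 reads in peaks. CPM alone cannot show that the step is 1 read.

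Peaks with at least 10 reads in enough libraries (filterByExpr, edgeR 4.0.16) were tested with limma 3.58.1 (trend, R 4.3.3) on log2(CPM + 1), all 9 libraries in 1 fit, with Benjamini-Hochberg adjustment over 48287 peaks and a threshold of 0.05. Fold changes on this scale understate the change of low peaks. Summed CPM per gene, log2(sum + 1), was tested likewise over 15394 genes. Named peaks were each gene's start-site peaks, its 3 highest peaks and those with the smallest p in each direction; list genes were named by the start-site peak with the smallest p. Members and lists were chosen with earlier results of these data known. Of the 36 library pairs, 24 differed by less than sampling noise over the peaks (chi-square per degree of freedom under 1), 19 of them between genotypes, so no libraries were merged. Alternatives were a replicate block, other pseudocounts, no filter, pairs of genotypes alone, edgeR, DESeq2 1.42.0, TMM scaling, each library left out, and other intergenic windows. The test was also run on counts simulated with sampling noise alone, which these libraries did not follow, and no result here rests on that run. 1 gene named by the rule on likeness is not reported here.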

Additional observations from a re-analysis of the deposited data

How the results depend on the processing

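None of the 108 tested peaks passed an adjusted p of 0.05 in any comparison under any of the 19 alternatives that apply, and neither did a gene sum. The lowest adjusted p values were 0.27, 0.562 and 0.365 in Stat6_KO against WT, Il21e_KO against WT and Stat6_KO against Il21e_KO. Deviations of same-numbered libraries correlated at 0.21, -0.10 and 0.25 in Il21e_KO against WT and at -0.19 to 0.03 in the other comparisons, so replicates 1 and 3 of Il21e_KO were closest to the WT library of their number and no comparison had all 3 pairs above 0.1. A fit with the replicate number as a block called 0 of the peaks in each comparison. Of 171 alternative gene sums 160 kept their direction and 11 turned, none called. For Il21e_KO against WT, Foxp1 gave 0.000855 with DESeq2 and 0.00150 with TMM scaling, and Foxo1 gave -0.000193 without intergenic peaks. With 1 library left out at a time, Foxp1 ranged from -0.0361 to 0.0104 in Stat6_KO against WT, -0.0298 to 0.0167 in Il21e_KO against WT and -0.0254 to 0.0101 between the knockouts. Foxo1 ranged from -0.00579 to 0.0577 in Il21e_KO against WT, and Foxo3 from -0.0600 to 0.0186 in Stat6_KO against WT. Of 848 alternative values of named peaks 29 turned, 22 of them with a library left out. In Il21e_KO against WT, Foxo1 exon 1 gave 0.0326, 0.0510 and 0.0401 with edgeR, DESeq2 and TMM scaling. The Foxo3 peak chr10:41945803-41946663 gave 0.0610, 0.0555 and 0.00253, and Foxp1 start 2 gave 0.00470 with TMM scaling. With 1 library left out at a time, start-site values in that comparison ranged from -0.302 to 0.543 at Foxo3, -0.202 to 0.0363, -0.107 to 0.0956, -0.222 to 0.298 and -0.234 to 0.064 at Foxp1 starts 1, 2, 3 and 4, and -0.103 to 0.125 at Foxo1 exon 1. In Stat6_KO against Il21e_KO they ranged from -0.793 to 0.0515 at Foxo3, and -0.174 to 0.0628, -0.351 to 0.17 and -0.0382 to 0.26 at Foxp1 starts 1, 3 and 4. In Stat6_KO against WT they ranged from -0.115 to 0.0511 and -0.0195 to 0.0859 at Foxp1 starts 3 and 4. Of the internal peaks, chr3:52146945-52148123 ranged from -0.0206 to 0.19 and chr10:41945803-41946663 from -0.219 to 0.0935 in Il21e_KO against WT. Peak chr10:41939687-41940835 ranged from -0.0728 to 0.366 between the knockouts and from -0.155 to 0.00393 in Stat6_KO against WT, and chr6:99121347-99123165 from -0.0469 to 0.0345 between the knockouts. Leaving out Il21e_KO 1 turned the Foxo3 start site and Foxp1 starts 3 and 4 in both comparisons of that genotype. The cause was not tested. Depth limits the 170 peaks with at most 15 reads, which were all tested only in the fit without the filter, and 3 libraries per genotype limit the rest. That fit tested all 278 peaks and called 0 of them in each comparison.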
